A study of Columba livia with 6 samples.

Results

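The 10 genes described here are SLC6A19, SLC12A3, SLC23A1, SLC26A4, SLC1A1, SCNN1A, ATP6V1B1, PKHD1, HAO2 and APOB, most of which act in the epithelium of kidney tubules. They were chosen by name because earlier results of these data showed them high in 1 ovary, named HP2, so their levels in HP2 and their HP against LP differences are given as a description. The 10 names stand for 14 of the 34346 loci in the count table, because PKHD1 has 3 loci and ATP6V1B1 and APOB have 2 each. The other 7 genes have 1 locus each. Of the 14 loci, 13 had a mean FPKM of at least 0.1 over the 6 ovaries and were tested in HP against LP. The exception was a short PKHD1 locus. Without HP2, 11 loci were tested, and HAO2 and the minus-strand locus of APOB no longer reached the minimum.

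The study measured RNA in whole ovaries of domestic pigeons (Columba livia) by RNA-seq after ribosomal RNA was depleted. Each ovary gave 1 library. The HP group (HP1, HP2, HP3) held 3 ovaries with high egg production, and the LP group (LP4, LP5, LP6, with the numbers of the labels) 3 with low egg production. All 6 birds were 2 years old and sexually mature, and the labels list no treatment. A whole ovary holds follicles, stroma, vessels and surface epithelium together, so that more cells of a type and more RNA per cell cannot be told apart in these values.

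Kidney tubules recover what the glomerulus filters. In the proximal tubule, apical carriers bring back amino acids, phosphate, sugars and vitamins, coupled to sodium. The loop and the distal tubule take up salt through cotransporters that are the targets of diuretics. In the last segments, principal cells take up sodium through the channel ENaC, and intercalated cells move protons and bicarbonate with a V-type proton pump and anion exchangers. In birds, the left ovary lies against the front of the left kidney, with the adrenal gland beside it.

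HP2 stood apart from the other ovaries at more loci than these. Total counts were between 97875183 and 108669967 per ovary, and the TMM scaling factors were between 0.987 and 1.016, so depth differed little. The excess of an ovary is given here as the log2 ratio of its TMM-scaled CPM (counts scaled to library size) to the highest of the other 5 ovaries, after 0.5 CPM was added to both. HP2 had an excess of at least 2, a 4-fold difference, at 98 of the 28274 tested loci (0.347%), against 15 to 39 loci for each of the other ovaries. At an excess of at least 1 the numbers were 293 loci (1.04%) in HP2 and 56 to 158 in the others. Markers of the ovary were present in every library. FOXL2, a transcription factor of granulosa cells, had between 13074 and 17314 counts at its smaller locus. AMH, a hormone of small follicles, had between 16869 and 63222.

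**Figure D1:**
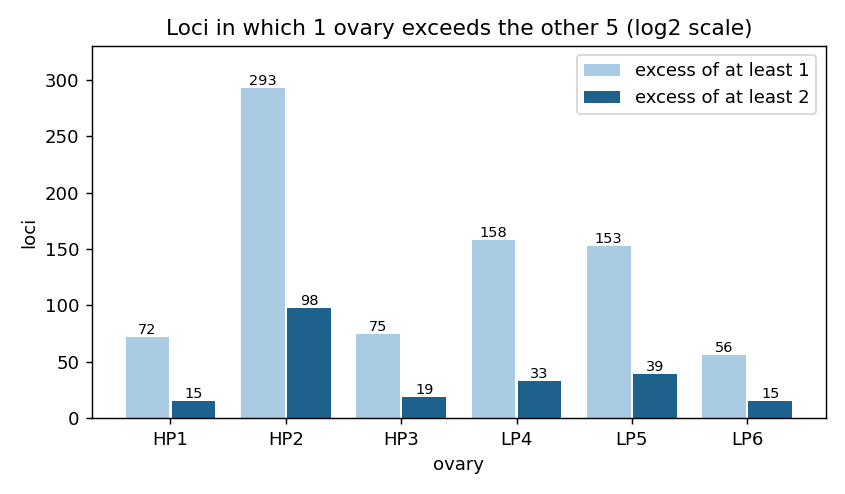
Number of tested loci (vertical axis) at which each ovary (horizontal axis) exceeded the highest of the other 5 by at least 1 (light bars) or at least 2 (dark bars) on the log2 scale. HP2 had the most loci at both limits, with 293 and 98, and LP4 and LP5 followed with 158 and 153 at the lower limit.

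HP2 was the highest of the 6 ovaries at 13 of the 14 loci, among them the annotated locus of each of the 10 genes. Over all tested loci HP2 was highest at 17.4%, and nothing is read from the members' count, since they were chosen for it. HP3 was second at 9 of the 14 loci. The excess of HP2 was at least 1 at 9 loci and at least 2 at 7. It was below 1 at SLC1A1, SCNN1A and the plus-strand locus of ATP6V1B1, so the description as high in HP2 alone holds for 7 of the 10 annotated loci and not for these. Levels are compared below between ovaries within a locus and never between loci. Coordinates are those of the files, on the genome build Cliv_1.0.

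**Figure D2:**
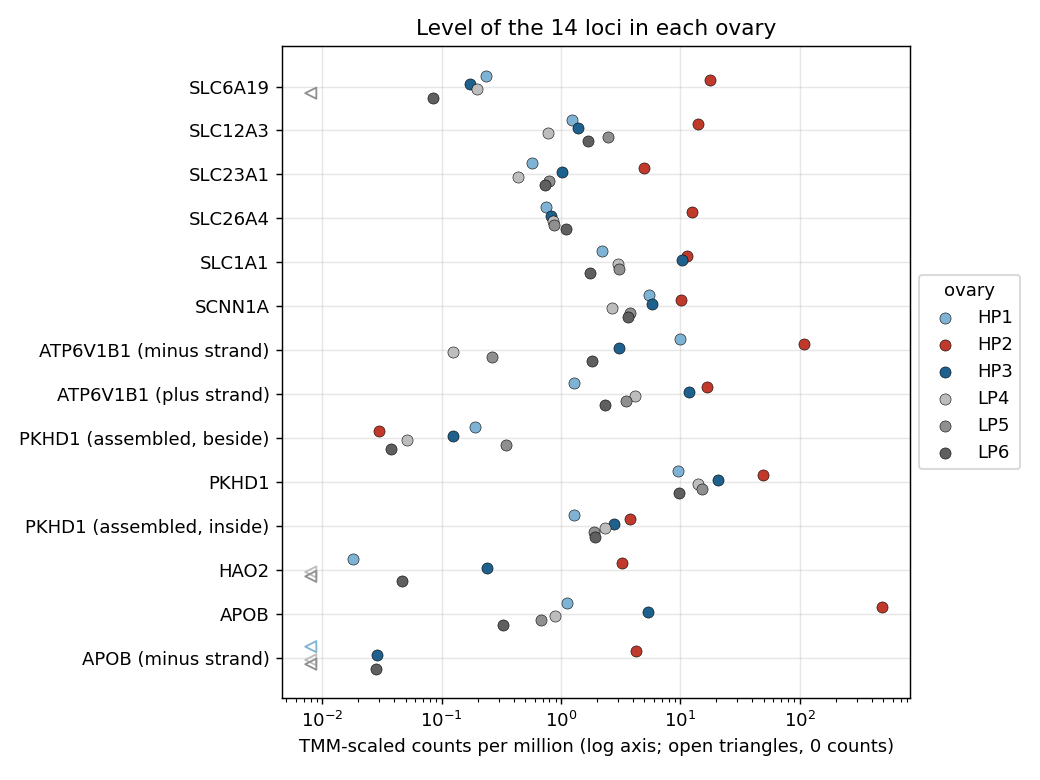
Level of each of the 14 loci (rows) in each ovary (points), in TMM-scaled CPM on a log axis. Open triangles mark ovaries with 0 counts. HP2 (red) is the rightmost point at every locus but the PKHD1 locus that lies beside the gene, and HP3 lies close to it at SLC1A1 and at the plus-strand locus of ATP6V1B1.

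Among the carriers of the proximal tubule, SLC6A19 and SLC23A1 were high in HP2 alone, while SLC1A1 was high in HP2 and HP3. SLC6A19 encodes B0AT1, the sodium-coupled carrier that recovers neutral amino acids at the apical membrane of proximal tubule and intestine. Its locus (scaffold NW_004973586.1, bases 44107 to 72867, plus strand) had 1772 counts in HP2, 26 in HP1, 18 in HP3, 19 in LP4, 0 in LP5 and 9 in LP6. HP2 was 74.4-fold above the next ovary, HP1, and held 96.1% of the counts of all 6. The other 5 ovaries lay at 0 to 26 counts, and the groups overlapped. In CPM, HP2 was at 17.6, while the HP mean without it was 0.204 ± 0.0456 CPM (SD, n = 2) and the LP mean 0.0934 ± 0.0984 CPM (SD, n = 3). The log2 fold change of HP over LP was 5.99 ± 2.20 (SE) with HP2 and 1.12 ± 1.32 (SE) without it.

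SLC23A1 encodes SVCT1, the sodium-coupled carrier of ascorbate in the tubule and intestine. Its locus (NW_004973290.1, 15770630 to 15775411, plus strand) had 500 counts in HP2, 63 in HP1, 107 in HP3, 42 in LP4, 78 in LP5 and 78 in LP6. HP2 was 4.86-fold above HP3, and the other 5 ovaries were spread over 2.36-fold. HP over LP gave a log2 fold change of 1.75 ± 0.82 (SE) with HP2 and 0.29 ± 0.47 (SE) without it. Many birds make their ascorbate in the kidney.

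SLC1A1 encodes EAAT3, a carrier of glutamate and aspartate in the proximal tubule and in neurons. Its locus (NW_004973424.1, 1842521 to 1885466, plus strand) had 1136 counts in HP2 and 1074 in HP3, and 244 in HP1, 288 in LP4, 303 in LP5 and 188 in LP6. HP2 exceeded HP3 by 1.10-fold only, and HP1 lay among the LP ovaries. Fitted with HP2, the log2 fold change was 1.61 ± 0.60 (SE), and fitted without it 1.26 ± 0.64 (SE).

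The salt and anion carriers of the later tubule, SLC12A3 and SLC26A4, were high in HP2 alone, and the ENaC subunit SCNN1A was not. SLC12A3 encodes NCC, the sodium-chloride cotransporter of the distal tubule that thiazide diuretics block. Its locus (NW_004973333.1, 10797193 to 10806080, plus strand) had 1415 counts in HP2, 136 in HP1, 145 in HP3, 76 in LP4, 243 in LP5 and 182 in LP6. The next ovary was an LP ovary, LP5, which HP2 exceeded by 5.72-fold. The log2 fold change was 1.75 ± 1.02 (SE) with HP2 and turned to -0.33 ± 0.51 (SE) without it.

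SLC26A4 encodes pendrin, an exchanger of chloride, bicarbonate and iodide in intercalated cells, thyroid and inner ear. Its locus (NW_004973179.1, 2172187 to 2197253, plus strand) had 1262 counts in HP2, 82 in HP1, 87 in HP3, 83 in LP4, 87 in LP5 and 118 in LP6. The other 5 ovaries lay within 1.48-fold of each other after scaling, and HP2 was 11.4-fold above the highest of them, LP6. Here too the log2 fold change changed sign, from 2.31 ± 1.12 (SE) with HP2 to -0.26 ± 0.33 (SE) without it. Without HP2 both HP ovaries lay below every LP ovary, at a mean of 0.788 ± 0.0602 CPM (SD, n = 2) against 0.946 ± 0.135 CPM (SD, n = 3), a difference that did not pass edgeR's test (adjusted p = 0.941).

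SCNN1A encodes the alpha subunit of ENaC, the sodium channel of principal cells and of many other epithelia. Its locus (NW_004973390.1, 1347403 to 1354900, plus strand) had 1019 counts in HP2, 598 in HP1, 604 in HP3, 257 in LP4, 372 in LP5 and 390 in LP6. Every HP ovary lay above every LP ovary, and HP2 exceeded HP3 by 1.75-fold. The HP mean was 7.11 ± 2.61 CPM (SD, n = 3) with HP2, 5.60 ± 0.233 CPM (SD, n = 2) without it, and the LP mean 3.35 ± 0.605 CPM (SD, n = 3). As a log2 fold change this was 1.08 ± 0.31 (SE) with HP2 and 0.74 ± 0.26 (SE) without it. SCNN1A overlaps the end of VAMP1 on the other strand, and VAMP1 had 3214 counts in HP2 and 1760 to 2953 elsewhere. The partners of SCNN1A did not share its order. The main locus of SCNN1B, the beta subunit, had 3988 counts in HP2 and 2780 to 11744 in the others, with LP6 highest. SCNN1G, the gamma subunit, had 2182 in HP2 and 1640 to 3068 in the others.

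ATP6V1B1 encodes the B1 subunit of the V-type proton pump, the form found in intercalated cells and other acid-secreting epithelia. Its annotated locus (NW_004973947.1, 120048 to 130895, plus strand) had 1668 counts in HP2, 1238 in HP3, 140 in HP1, 406 in LP4, 344 in LP5 and 249 in LP6. HP2 and HP3 were high, and HP1 was the lowest of the 6 ovaries. Its log2 fold change was 1.57 ± 0.81 (SE) with HP2 and 0.98 ± 0.84 (SE) without it. A second locus of that name was assembled from the reads on the minus strand (106719 to 142820) and has no protein description. It had 10978 counts in HP2, 1101 in HP1, 321 in HP3, 12 in LP4, 26 in LP5 and 193 in LP6. Every HP ovary lay above every LP ovary there, and the log2 fold change was 5.79 ± 1.72 (SE) with HP2 and 3.16 ± 1.17 (SE) without it.

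The minus-strand ATP6V1B1 locus covers VAX2 on the plus strand, a homeobox gene of the developing eye in vertebrates. VAX2 had 850 counts in HP2 and 14887 in HP1, 19640 in HP3, 5991 in LP4, 11170 in LP5 and 8967 in LP6, so HP2 was the lowest where the minus-strand locus was the highest. An unnamed plus-strand locus (106719 to 110089) lies inside both. Summed with it, the interval had 11828 counts in HP2, within the range of 6003 to 19961 of the other ovaries. The minus-strand locus took 92.8% of that sum in HP2 and 0.200% to 6.63% in the others. How the counts of the interval were shared among its loci was not tested, and the values of the minus-strand locus are uncertain for that reason. The annotated plus-strand locus of ATP6V1B1 lies inside it as well.

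Other subunits of the proton pump were counted from a list. Of 23 tested loci of 16 subunit and accessory genes, 0 were called by the rule given below. That rule called 2.09% of all loci as higher and 1.02% as lower. HP2 was highest at 17.4% of all loci and at 8 of these 23. Their log2 fold changes of HP over LP lay between -0.46 and 0.995. ATP6V1A, the catalytic subunit, had 24252 counts in HP2 and 18025 to 25371 in the others. ATP6V1B2, the B subunit of most cells, whose row also carries other gene names, had 30356 in HP2 and 25378 to 34250 in the others. ATP6V0E1, a small membrane subunit, had 8082 in HP2 and 2430 to 4332 in the others, and HP2 was 1.83-fold above the next ovary. ATP6V0A4, the kidney form of the a subunit, was counted with the intercalated cell list, and it had 499 counts in HP2, 79 in HP3, 38 in HP1, 28 in LP4, 64 in LP5 and 0 in LP6.

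PKHD1, HAO2 and APOB are no transporters. PKHD1 encodes fibrocystin, a membrane protein of primary cilia in tubules and bile ducts, which is mutated in recessive polycystic kidney disease in humans. Its annotated locus (NW_004973546.1, 4310 to 271742, minus strand) had 4994 counts in HP2, 2160 in HP3, 1042 in HP1, 1356 in LP4, 1491 in LP5 and 1049 in LP6. HP2 was 2.40-fold above HP3, and HP1 was the lowest. HP over LP, the log2 fold change was 1.04 ± 0.56 (SE) with HP2 and 0.22 ± 0.38 (SE) without it. An assembled locus inside it (45059 to 45888) had 383 counts in HP2 and 140 to 289 in the others, and one beside it (3073 to 3276) had 3 counts in HP2 and 4 to 34 in the others. The latter is the locus of the 14 at which HP2 was lowest, at a depth where a few counts set the order.

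HAO2 encodes a peroxisomal oxidase of long-chain 2-hydroxy acids, known from kidney and liver of mammals. Its locus (NW_004973390.1, 852475 to 862441, plus strand) had 326 counts in HP2, 25 in HP3, 2 in HP1, 0 in LP4, 0 in LP5 and 5 in LP6. HP2 was 13.6-fold above HP3 and held 91.1% of all counts. The fitted log2 fold change of 6.07 ± 2.09 (SE) depends on the small constant that the fit adds to counts near 0. Without HP2 the locus fell below the minimum FPKM of the main fit.

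APOB encodes apolipoprotein B, the protein of very low density lipoproteins, which is made in the liver and in the chicken also in the kidney. Laying birds send these particles to the yolk. Its locus (NW_004973598.1, 2548217 to 2586399, plus strand) had 49140 counts in HP2, 556 in HP3, 124 in HP1, 86 in LP4, 67 in LP5 and 35 in LP6. HP2 was 91.9-fold above HP3 and held 98.3% of all counts, and its excess of 6.39 was rank 2 among all tested loci. Without HP2, HP1 and HP3 still lay above every LP ovary, at 3.22 ± 2.96 CPM (SD, n = 2) against 0.630 ± 0.284 CPM (SD, n = 3), a difference carried by HP3. The log2 fold change was 8.03 ± 2.44 (SE) with HP2 and 2.35 ± 0.74 (SE) without it. A short minus-strand locus inside APOB (2559079 to 2559442) had 424 counts in HP2, 3 in HP3, 3 in LP6 and 0 in the other ovaries. Whether its counts are those of APOB itself was not tested.

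**Figure D3:**
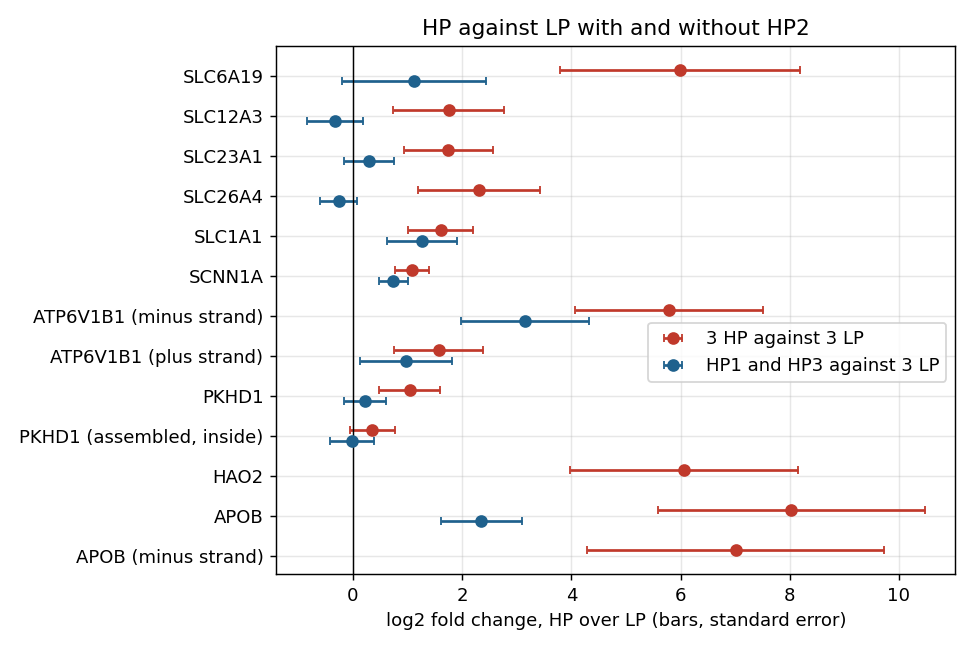
Log2 fold change of HP over LP (points, with the standard error of edgeR's fit as bars) for the 13 tested loci, from all 6 ovaries (red) and without HP2 (blue). SLC12A3 and SLC26A4 lie above 0 with HP2 and below 0 without it, while SLC1A1 moves from 1.61 to 1.26 and SCNN1A from 1.08 to 0.74.

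With HP2 the median log2 fold change of the 13 tested loci was 1.75, against -0.0078 over all tested loci. Without it the median of 11 loci was 0.74, against -0.011 over all, with 8 loci above 0 and 3 below. A locus was called where edgeR's quasi-likelihood test gave an unadjusted p-value under 0.05 and where the mean FPKM of HP and LP differed by 1 or more on the log2 scale. With HP2, 7 of the 13 loci passed as higher in HP, where 2.09% of all tested loci did, and that contrast chose the members. They were SLC6A19, SLC1A1, SCNN1A, HAO2, the minus-strand locus of ATP6V1B1 and both loci of APOB. Without HP2, 2 of 11 passed, APOB and the minus-strand locus of ATP6V1B1, where 1.49% of all loci did.

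The comparison of HP1 and HP3 with the 3 LP ovaries does not use HP2, although the members were named with these results known. After Benjamini-Hochberg adjustment over 28202 loci, edgeR's test gave the 11 loci adjusted p-values between 0.902 and 0.998. Of the 11, 0 were under 0.05 with edgeR, with DESeq2 or with limma on log2(FPKM + 1). Over all loci, edgeR had 4 under it (0.0142%), DESeq2 328 and limma 5. At an unadjusted p-value under 0.05 edgeR called 3 loci, where it called 5.20% of all loci. DESeq2 called 3 and limma 2, and their shares over all loci are not given here. The 3 of edgeR were APOB, SCNN1A and the minus-strand ATP6V1B1 locus, the same 3 at which HP1 and HP3 lay above every LP ovary. Over all tested loci that order occurred at 10.6%. With all 6 ovaries, 3 of 13 loci had every HP above every LP ovary, where 7.38% of all loci did. For SLC6A19, SLC12A3, SLC23A1, SLC26A4 and the annotated PKHD1 locus, the log2 fold changes of 1.04 to 5.99 with HP2 became -0.33 to 1.12 without it, each smaller than its standard error. For SLC1A1 and the plus-strand ATP6V1B1 locus the values without HP2 were 1.26 ± 0.64 and 0.98 ± 0.84 (SE), with HP3 alone above the LP range.

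Other genes of the same tubule segments were counted from lists of gene symbols. These held 48 symbols for the proximal tubule and 36 for loop, distal tubule and collecting duct. A further 18 were of intercalated cells, 11 of the glomerulus and 30 of kidney transcription factors. Some genes stand there under an old and a new symbol, such as TMEM27 and CLTRN, or KIRREL and KIRREL1. These lists leave out the 10 genes themselves. Of the 127 tested loci of these 5 lists together, 15 were called higher in HP and 0 lower (2.09% and 1.02% of all loci), with log2 fold changes between 1.002 and 4.62 and adjusted p-values between 0.572 and 0.604 (edgeR). Without HP2, 5 of 121 were called higher (1.49% of all loci), and all 5 were among the 15. The median log2 fold change of these loci was 0.30 with HP2 and 0.11 without it, against -0.0078 and -0.011 over all tested loci. The minimum mean FPKM was taken over all 6 ovaries, HP2 included. Some list loci, such as SLC22A7, BSND and ATP6V0A4, were therefore tested only through their level in HP2. The counts below of loci with HP2 highest or in excess include such loci.

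In the proximal tubule list, 33 of 48 symbols were found, and HP2 was the highest ovary at 25 of 35 tested loci (17.4% of all loci). Its excess was at least 1 at 17 of the 35 (1.04% of all loci). HP2 was between 2.22-fold and 165-fold above the next ovary over these and 1 untested locus. The test called 6 loci higher and 0 lower (2.09% and 1.02% of all loci), and 29 did not pass. The list's FPKM values summed to 3216 in HP2 and to between 1650 and 2329 in the other ovaries, with rows that also carry other gene names included. SLC22A7, an organic anion carrier, had 619 counts in HP2, 4 in LP6 and 0 in the other 4 ovaries. PDZK1, a scaffold of apical carriers, had 3082 counts in HP2 and 73 to 208 in the others. MIOX, the enzyme that breaks down inositol in the kidney, had 682 counts in HP2 and 9 to 21 in the others.

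The receptor complex that takes up filtered protein was high in HP2 too. LRP2, or megalin, whose row also carries other gene names, had 39894 counts in HP2 and 4026 to 6513 in the others. CUBN, or cubilin, had 9292 counts in HP2, 4157 in HP1, 2999 in HP3, 2066 in LP4, 1430 in LP5 and 3139 in LP6. AMN, the anchor of cubilin, had 526 counts in HP2 and 26 to 121 in the others. PCK1, an enzyme of glucose formation, had 4221 counts in HP2 and 232 to 364 in the others. GATM, which makes the precursor of creatine, was called higher with and without HP2, with 1251 counts in HP2, 301 in HP1, 404 in HP3, 101 in LP4, 135 in LP5 and 182 in LP6. Its log2 fold change was 2.21 ± 0.61 (SE) with HP2 and 1.27 ± 0.33 (SE) without it.

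TMEM27, or collectrin, which binds B0AT1 in the kidney, had 3666 counts in HP2, 2323 in HP3 and 425 to 1180 in the others. Other carriers were found through the protein descriptions in the table after values had been seen. A locus described as B0AT3, the relative of B0AT1 in the late proximal tubule (LOC102094065), had 1287 counts in HP2 and 13 to 33 in the others. A locus described as b0,+AT, the cystine carrier (LOC102093337), had 200 counts in HP2 and 0 to 12 in the others, and its partner SLC3A1 had 832 counts in HP2 and 78 to 135 in the others. A locus of the organic anion carrier SLC22A6 (LOC102089840) had 335 counts in HP2 and 0 to 8 in the others. Another (LOC102090018) had 354 and 4 to 26, and a locus described as SLC22A6-like (LOC102089650) had 74 and 4 to 20. The locus described as the enzyme BHMT (LOC102097034) had 1009 counts in HP2, 970 in HP3 and 119 to 360 in the others. In contrast, SLC6A20, a carrier of proline, was lowest in HP2, at 1736 counts against 2192 to 2795. So were MEP1A, at 193 against 215 to 460, and SLC34A2, whose row also carries another gene name, at 8127 against 8744 to 24164. AQP1 and ANPEP, of the same list, were not highest in HP2, with 12487 counts against 12092 to 27190 and 3922 against 2741 to 6144.

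In the list of loop, distal tubule and collecting duct, 29 of 36 symbols were found. HP2 was highest at 15 of 40 tested loci (17.4% of all loci), and its excess was at least 1 at 7 of them (1.04% of all loci). The test called 2 higher and 0 lower (2.09% and 1.02% of all loci). SLC12A1, or NKCC2, the relative of SLC12A3 in the loop, had 2005 counts in HP2, 68 in HP1, 29 in HP3, 34 in LP4, 6 in LP5 and 46 in LP6, with a log2 fold change of 4.62 ± 1.75 (SE, adjusted p = 0.594, edgeR). KCNJ16, a potassium channel of the distal tubule, had 3528 counts in HP2 and 454 to 748 in the others. BSND, the subunit of kidney chloride channels, had 187 counts in HP2 and 0 to 4 in the others. TRPV5, the calcium channel of the distal tubule, had 509 counts in HP2, 53 in HP1, 78 in HP3, 0 in LP4, 43 in LP5 and 0 in LP6. WNK4, a kinase that regulates SLC12A3, did not share its order, with 554 counts in HP2 and 371 to 636 in the others. AQP2, the water channel of principal cells, had 1122 counts in HP2 and 146 to 1043 in the others at its larger locus. At its smaller locus HP2 was not highest, with 132 counts against 73 to 210. AQP3, of the same list, was lowest in HP2 at both of its loci, with 965 counts against 1615 to 2264 and 880 against 1376 to 1992. The FPKM sum of the list in HP2, 4047, lay within the range of 3377 to 4157 of the other ovaries.

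Of the intercalated cell list, 0 of 11 tested loci were called (2.09% of all loci higher, 1.02% lower). HP2 was highest at 8 of the 11 (17.4% of all loci), and its excess was at least 1 at 2 of them (1.04% of all loci). ATP6V0A4, among these 2, and RHCG, among the 8, reached the minimum FPKM only through HP2. ATP6V1G3, a pump subunit that defines the list, was highest in HP1, with 767 counts in HP2 and 529 to 909 in the others. ATP6V0D2, also a defining subunit, had 823 counts in HP2 and 271 to 846 in the others. After scaling, HP2 was 1.03-fold above LP6 there. FOXI1, the transcription factor of these cells, had 181 counts in HP2 and 8 to 39 in the others. SLC4A9, a bicarbonate carrier of the pendrin-bearing cells, had 61 counts in HP2 and 4 to 22 in the others. SLC4A1, the chloride-bicarbonate exchanger of the acid-secreting cells and of red cells, had 792 counts in HP2 and 304 to 674 in the others. For the glomerulus, HP2 was highest at 3 of 12 tested loci (17.4% of all loci), and 1 was called higher (2.09% of all loci). PODXL, abundant in podocytes and in vessels, was lowest in HP2, at 23851 counts against 27962 to 43210.

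**Figure D4:**
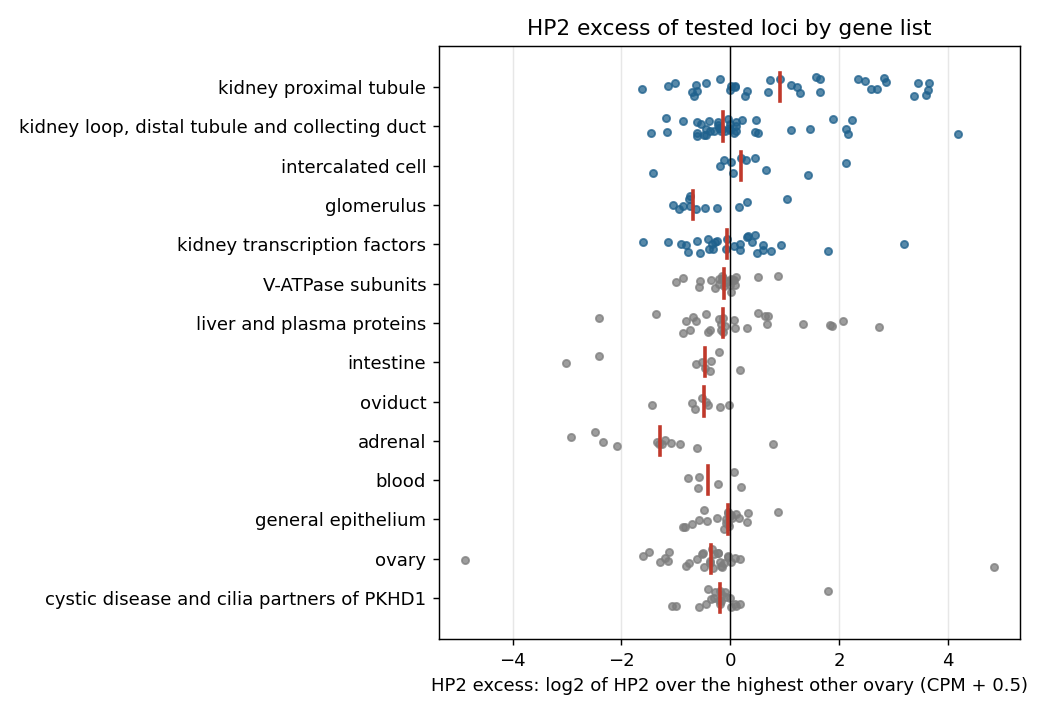
HP2 excess (horizontal axis, log2 of HP2 over the highest other ovary after 0.5 CPM was added) of every tested locus (points) of 14 gene lists (rows), with the median of each list as a red line and kidney lists in blue. The proximal tubule list has 17 of 35 loci at 1 or more (1.04% of all tested loci). The V-ATPase and general epithelium lists have 0 of 23 each. The intestine, oviduct, adrenal and blood lists have 0 of 9, 8, 12 and 6 tested loci, too few to tell from the share over all loci.

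Several kidney transcription factors were high in HP2 and HP3, but not every factor that was called had that order. Of 29 tested loci of the list, 6 were called higher and 0 lower with all ovaries (2.09% and 1.02% of all loci). Without HP2, 4 of 28 were called higher (1.49% of all loci), among them EYA1, PAX2 and LHX1. EYA1 was highest in HP3, with 319 counts there, 144 in HP1, 141 in HP2 and 57 to 87 in the LP ovaries. IRX1, called with all ovaries only, had 993 counts in HP2, 541 in HP1, 180 in HP3 and 31 to 247 in the LP ovaries. PAX2, a factor of kidney and oviduct epithelium, had 539 counts in HP2, 311 in HP3, 18 in HP1, 10 in LP4, 21 in LP5 and 14 in LP6. It was high in HP2 and HP3 and not in HP1, the order of SLC1A1 and the plus-strand ATP6V1B1 locus. The log2 fold change of PAX2 was 4.24 ± 1.15 (SE, adjusted p = 0.572) with HP2 and 3.39 ± 1.12 (SE, adjusted p = 0.902) without it. GRHL2, a factor of epithelial junctions, had 845 counts in HP2, 773 in HP3, 259 in HP1, 66 in LP4, 241 in LP5 and 230 in LP6. HNF4G had 805 counts in HP2 and 0 to 45 in the others. HNF4A, a factor of proximal tubule and liver, was not highest in HP2, with 3739 counts there and 2225 to 4217 in the others.

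**Figure D5:**
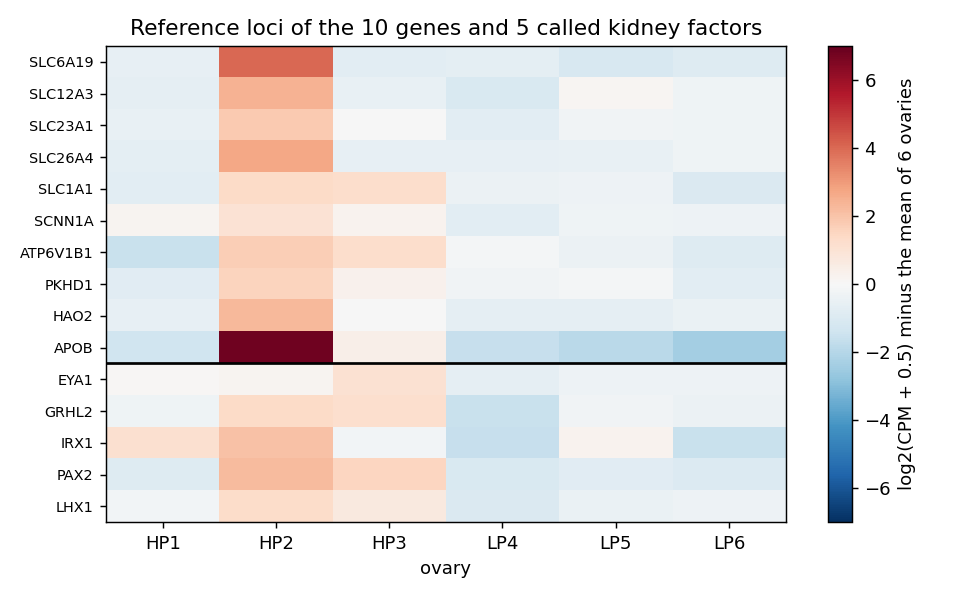
Levels of the annotated loci of the 10 genes (above the line) and of 5 kidney transcription factors called higher (below it) in each ovary, as log2(CPM + 0.5) minus the mean of the 6 ovaries. HP2 is the darkest column for most rows, with APOB and SLC6A19 the farthest above their means. SLC1A1, ATP6V1B1, PAX2, GRHL2 and LHX1 are above the mean in HP3 as well. EYA1 is highest in HP3, and SCNN1A, PKHD1 and APOB are above the mean there by less.

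Markers of other tissues were read beside these values. In the liver and plasma protein list, 1 of 28 tested loci was called higher (ITIH3), where 2.09% of all loci were. HP2 was highest at 12 (17.4% of all loci), with an excess of at least 1 at 5 (1.04% of all loci). ALB, or albumin, whose row also carries another gene name, had 494 counts in HP2 and 265 to 508 in the others, FGB, a fibrinogen chain, had 17 and 4 to 38, and the transthyretin loci had at most 7 counts in any ovary. APOA1, the apolipoprotein of high density lipoproteins, was lowest in HP2 at its main locus, with 72416 counts against 89361 to 125567. In contrast, AMBP, a plasma protein precursor, had 136 counts in HP2, 2 in HP1 and 0 in the others. AGXT, an enzyme of glyoxylate metabolism, had 723 in HP2 and 19 to 63 in the others. F2, or prothrombin, had 404 counts in HP2 and 33 to 73 in the others, and HPD, an enzyme of tyrosine breakdown, had 509 and 32 to 80. The list's FPKM values summed to 375 in HP2 and to between 285 and 318 elsewhere.

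MTTP, which loads lipid onto APOB, had 1308 counts in HP2, 878 in HP1, 722 in HP3, 342 in LP4, 572 in LP5 and 665 in LP6, so HP2 exceeded the next ovary by 1.63-fold. TM6SF2, another protein of lipoprotein assembly, had 76 counts in HP2 and 0 in the other 5 ovaries.

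For intestine, oviduct, adrenal and blood, 12 of 17, 8 of 21, 11 of 16 and 7 of 20 symbols of the lists were found. In these lists, 0 of 9, 0 of 8, 0 of 12 and 0 of 6 tested loci were called. HP2 was the highest ovary at 1, 0, 1 and 2 of them. Over all tested loci 2.09% were called higher and 1.02% lower, and HP2 was highest at 17.4%. Of the general epithelium list, 3 of 23 loci were called higher, EHF, CLDN3 and MUC1. EHF had 108 counts in HP2, 37 in HP3 and 0 to 8 in the others, and CLDN3, a tight junction protein, was highest in HP3, with 265 counts against 122 in HP2 and 4 to 30 in the others. The part of any other tissue in the levels of the 10 genes was not tested.

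Outside the lists, the 10 named loci with the largest HP2 excess and at least 1 CPM in HP2 were LIMD1, TMEM174, KL, ETNPPL, ABCC2, LARP4, HOGA1, TINAG, SLC5A12 and SLC25A48. TMEM174, a membrane protein of the proximal tubule in mammals, had 799 counts in HP2 and 0 in every other ovary. KL, or Klotho, the coreceptor for the phosphate hormone FGF23 in the kidney, had 2494 counts in HP2, 37 in HP1, 168 in HP3, 36 in LP4, 70 in LP5 and 33 in LP6. HOGA1, an enzyme of hydroxyproline breakdown in kidney and liver, had 731 counts in HP2 and 19 to 32 in the others. TINAG, a protein of the tubule basement membrane, had 731 counts in HP2 and 0 to 35 in the others. SLC5A12, a lactate carrier of the proximal tubule, had 1306 counts in HP2 and 19 to 98 in the others. The locus named LIMD1, after a gene of a LIM domain protein found in many tissues, had 1442 counts in HP2 and 0 in every other ovary. It has no protein description, and neither has the LARP4 locus. Whether the counts of these loci are those of the named genes was not tested. Not all 10 names are of genes known for the kidney.

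Solute carrier genes other than the members had 288 tested loci, and those of the kidney lists are included. Of the 288, 16 had an HP2 excess of at least 1, and HP2 was highest at 71 (24.7%). Among the 16 were SLC2A2, SLC3A1, SLC13A3, SLC22A7, SLC23A3, SLC34A1 and SLC12A1 of the kidney lists. SLC5A12 and SLC25A48, named above, were also among them, so this set is not separate from those loci. Over all tested loci the shares were 1.04% and 17.4%. The test called 2 of the 288 higher and 1 lower, where it called 2.09% and 1.02% of all loci. Their median log2 fold change was 0.05.

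The pattern of the members was averaged, as z-scores of log2(CPM + 0.5), over the 11 member loci with at least 1 count in every ovary. The mean z-score was 1.49 in HP2 and 0.25 in HP3, and -0.45 in HP1, -0.55 in LP4, -0.19 in LP5 and -0.56 in LP6. Of 13699 loci compared over the 6 ovaries, KL was the most like it (Pearson r = 0.99), followed by CUNH1orf112, SDSL, KCNJ15 and KDM8. With 6 ovaries and 1 far from the rest, such values are set mainly by HP2, and they are given as a description. SDSL, a relative of serine dehydratase, had 277 counts in HP2, 38 in HP3 and 0 to 8 in the others. KCNJ15, a potassium channel, had 543 counts in HP2 and 89 to 171 in the others. CUNH1orf112 and KDM8 differed little in size, with HP2 1.40-fold and 1.19-fold above the next ovary.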

How the data were processed

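RNA was measured in 6 pigeon ovaries, 3 HP and 3 LP, grouped and numbered by the labels. The labels name 1 ovary per library, and nothing else about batches. Per the methods and the submitters' processing notes, the authors trimmed reads with cutadapt 1.9, checked them with FastQC 0.10.1, aligned them with Bowtie2 and HISAT2 2.0.4 to the genome build Cliv_1.0, and assembled and quantified transcripts with StringTie 1.3.4 and Ballgown. The authors deposited 1 table with whole-number counts, not normalized, and FPKM values for 34346 loci. How the counts were made, and whether they used the strand that the dUTP libraries keep, is not given in the sources used here, so counts of overlapping loci are uncertain. For many loci the length that FPKM implies differs from the span of the locus, so levels were not compared between loci. Totals were 97875183 to 108669967 counts per ovary, and the spread between ovaries, not counting error, limits the precision (biological coefficient of variation 0.423).

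The test took loci whose mean FPKM reached 0.1 (28274 with HP2, 28202 without it) with edgeR 4.0.16's quasi-likelihood test after TMM scaling, without covariates, with Benjamini-Hochberg adjustment over all tested loci. A standard error is the log2 fold change divided by the square root of F. Calls used an unadjusted p-value under 0.05 and a log2 ratio of group mean FPKM of at least 1 in size. The smallest two-sided p of an exact permutation test of 3 against 3 is 0.1, so none was run on single values. Alternatives were RLE scaling, no filter, DESeq2 1.42.0, limma 3.58.1 on log2(FPKM + 1), other limits for the excess, and leaving out each ovary. The fits were tested on simulated data with 200 changed loci. Python 3.11.15 and R 4.3.3 were used. The members and gene lists were chosen with earlier results of these data known. Besides the members, the text names list genes that were called, had an HP2 excess of at least 1 or define a list, the 10 loci outside the lists with the largest HP2 excess, and the 5 most like the members. SLC6A20, MEP1A, SLC34A2, AQP1, AQP3, ANPEP, SCNN1B, SCNN1G, WNK4, SLC4A9, PODXL, TMEM27, MTTP, ATP6V1A, ATP6V1B2, ATP6V0E1, APOA1, ZP2, CHGA, PIGR, VAMP1, VAX2 and the loci found by their descriptions were named after their values were seen. Sequences and some of the genes that the rule names are not reported here.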

Additional observations from a re-analysis of the deposited data

How the results depend on the processing

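No paired analysis was made, because the labels name no pairing of HP with LP ovaries. Most of the listed differences between settings concern how many loci pass, and their cause was not tested beyond the samples or loci that a setting leaves out. Without HP2, the log2 fold changes of SLC12A3 (-0.33), SLC26A4 (-0.26) and the assembled PKHD1 locus inside the gene (-0.015) reversed, and no other alternative reversed a member. With any other ovary left out they reached at most 2.23, 2.82 and 0.69. Over all loci, 3 had an adjusted p-value under 0.05 in HP against LP, with 385 in DESeq2, 6 in limma and 0 to 7 when 1 ovary was left out. Without HP2 the number was 4, with 328 in DESeq2 and 0 to 5 when a further ovary was left out. The number of loci called changed with the setting as well. Over all loci, 880 were called with all 6 ovaries and 695 in limma. It was 1058 without HP1, 702 without HP2, 1046 without HP3 and 903 to 1008 without 1 LP ovary. From the fit without HP2, limma called 587, and 759 to 865 were called without a further LP ovary. Of the members, 7 were called, with 2 in limma and 2 to 11 when 1 ovary was left out. These were 11 without HP1, 2 without HP2, 2 without LP4, 3 without LP5 and 3 without LP6. Without HP2, 2 members were called, with 1 in limma and 1 to 3 with a further ovary left out. Of the 5 kidney lists, 15 loci were called, with 6 in limma and 5 to 27 when 1 ovary was left out (27 without HP1, 25 without HP3, 5 without HP2). Without HP2, 5 were called, with 2 in limma and 0 to 8 with a further ovary left out (0 without HP3 as well). The loci with HP2 in excess were 98 at an excess of at least 2 and 293 at 1. DESeq2 gave no p-value for 4 member loci. With 1 HP ovary left, its spread is assumed to be that of the LP ovaries. Low counts limit HAO2 and the minus-strand APOB locus, which had at most 5 and 3 counts in the LP ovaries.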

Other observations

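ZP1, which encodes a protein of the egg coat, had 1721 counts in HP2 and 0 to 11 in the other ovaries, while ZP2, another coat protein, had 85252 in HP2 and 52359 to 91500 in the others. GDF9 and BMP15, growth factors of the oocyte, were not highest in HP2, with 10045 counts against 8052 to 13229 and 4876 against 4455 to 7238.

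HP3, the ovary that shared the high levels of SLC1A1 and of the annotated ATP6V1B1 locus, was the highest ovary for several genes of adrenal chromaffin cells, and LP5 was second for them. PNMT, the last enzyme of adrenaline synthesis, had 243 counts in HP3, 101 in LP5, 15 in LP6, 6 in HP2 and 0 in HP1 and LP4. DBH, which makes noradrenaline, had 923 in HP3, 497 in LP5 and 118 to 140 in the other ovaries. CHGA, a protein of secretory granules, had 1764 in HP3, 870 in LP5 and 134 to 244 in the others. In LP5, SLC1A1 (303 counts) lay with the other LP ovaries, and whether its level is linked to that of PNMT, DBH and CHGA was not tested. PIGR, the receptor that carries antibodies across epithelia, had 1350 counts in HP3, 122 in LP5, 116 in HP2 and 11 to 27 in the others. These genes were picked after their values were seen.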
